A study of Mus musculus with 2 samples.

Results

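Repeated weak sites are stretches of cortical chromatin that passed the lenient peak list in both mice but reached the stringent list in neither. For each library the authors deposited a longer and a shorter peak list, and the longer lists of both libraries were merged on chromosomes 1 to 19 and X, joining peaks that overlapped by at least 1 bp. Of 149776 merged sites, 10445 (6.97%) held a longer-list peak of both libraries and overlapped no shorter-list peak of either. Among the 69791 merged sites that touched no shorter-list peak, these 10445 were the share found in both libraries, 15.0%. The members were chosen by the measured peak calls of these same libraries, so this share and the peak heights are given as descriptions.

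DNase-seq libraries came from left cerebral cortex tissue of 2 males of the hybrid strain B6CASTF1/J, aged 36 days, with 1 library per mouse and no treatment or genotype contrast. The labels number them as separate animals under a shared donor entry, and nuclei were isolated from whole tissue, per the labels. The series therefore has 1 group and no control group, and errors below are the SD over 2 mice or counting intervals. The longer lists held 125119 peaks in replicate 1 and 103840 in replicate 2, and the shorter lists 72021 and 59150. Of those shorter-list peaks, 1447 and 788 overlapped no longer-list peak of their own library. As a check of the tissue label, a shorter-list peak stood within 1 kb of a start site of all 19 excitatory neuron genes on the list used here, while 15 of 23 genes of liver, muscle and blood had none in either mouse. Of all 21755 coding genes, 7768 had none.

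DNase I cuts DNA where nucleosomes are displaced, so stretches with many cuts mark promoters, enhancers and insulators in use, and short protected gaps inside them, called footprints, mark bases shielded by a bound protein. Cerebral cortex is a mixture of many excitatory neurons with fewer interneurons, astrocytes, oligodendrocytes and their precursors, microglia and vessel cells. In such bulk tissue a site that is open in fewer cells and a site that is less accessible in every cell cannot be told apart.

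At 3 cell-type genes the repeated weak site was the promoter itself, with no shorter-list peak within 1 kb of any annotated start in either mouse. They were Gjb6, a gap junction connexin of astrocytes, Mag, the myelin-associated glycoprotein of oligodendrocytes, and Cx3cr1, the fractalkine receptor of microglia. Their sequences are shown because only these 3 listed genes had such a site without a shorter-list peak at the promoter. Which cells the signal came from was not tested. The plus strand of GRCm38.p6 (mm10) is given, and capitals mark bases inside a footprint of either mouse. For Gjb6 the run covers chr14:57133612-57133799 and for Mag chr7:30914874-30915030, the bases of each site outside annotated exons. Cx3cr1 (chr9:120068303-120068332) and the other Gjb6 site (chr14:57133400-57133429) lie inside annotated exons, and 30 bases around their footprints are given.
Gjb6 upstream site: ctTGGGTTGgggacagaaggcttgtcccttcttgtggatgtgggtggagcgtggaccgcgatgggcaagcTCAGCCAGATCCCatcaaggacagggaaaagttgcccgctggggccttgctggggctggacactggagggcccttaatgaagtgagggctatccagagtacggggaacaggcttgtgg
Mag: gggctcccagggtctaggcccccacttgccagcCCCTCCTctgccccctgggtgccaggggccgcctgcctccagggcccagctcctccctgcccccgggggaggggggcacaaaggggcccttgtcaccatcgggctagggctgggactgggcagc
Cx3cr1: catctttattttCGAAGTTagccaatagca
Gjb6 exonic site: ctcgacGCGCCTTCtgtGGTGCGCaccgcc

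Away from promoters, the sequence pattern with the largest excess over flanking DNA among those with at least 50 matches was that of CTCF, the zinc-finger protein of insulators and chromatin loops. The 5 matches shown are those in the sites of greatest mean height outside promoters whose match lay in a footprint of both mice, chosen after the values were seen. Capitals mark the CTCF core pattern, and each run is read on the strand of the match. The runs lie on the plus strand at chr8:95713801-95713830 (Ndrg4) and chr15:85599042-85599071 (Wnt7b), and on the minus strand at chr2:84890157-84890186 (Rtn4rl2), chr5:24470790-24470819 (Agap3, upstream) and chr5:24481833-24481862 (Agap3, downstream). Gene names here are those of the nearest coding start.
Ndrg4: ggatggtagCCACAAGAGGGCgctctagac
Rtn4rl2: cgcatatagCCACCAGAGGGCgagccatgt
Wnt7b: ccagtagctCCACCAGAGGGCgctctgtag
Agap3 upstream: tctctttggCCACAAGGTGGCagcagagca
Agap3 downstream: ggagaaagcCCAGTAGGGGGCgcaggaaga

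AP-1, the dimer of Fos and Jun proteins, recognizes the pattern TGAGTCA, which came next in excess over the flanks. Of its 1158 matches in repeated weak sites, only 15 (1.30%) lay in a footprint of both mice, so the runs shown are not typical. By the same choice, the runs lie on the plus strand at chr9:40349053-40349077 (Gramd1b), chr8:12768871-12768895 (Atp11a) and chr11:97618598-97618622 (Epop), and on the minus strand at chr3:117329660-117329684 (Plppr4) and chr16:30022592-30022616 (Hes1).
Gramd1b: agatggtggTGAGTCAgatgaccat
Plppr4: tcaagcatcTGAGTCAgaacgaatg
Atp11a: aaacctgcaTGAGTCAgccttggca
Hes1: ggtgggggcTGAGTCAgacttgcta
Epop: cttcgatgcTGAGTCAtctcactag

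The height of a peak is the authors' deposited signal for it. In each library all heights fell on multiples of a fixed step, to a tolerance of 0.02 steps, so they were read as cuts scaled to depth, with inferred depths of 160.1 M cuts in replicate 1 and 145.4 M in replicate 2. On that reading a height of 1 is about 1 cut per M cuts of the library. The median repeated weak site had a height of 0.481 in replicate 1 and 0.440 in replicate 2, a mean of 0.461 ± 0.0287 (SD, n = 2 mice). About 77 cuts lie behind the median in replicate 1 and 64 in replicate 2, which leaves a Poisson error of 11.4% and 12.5%. Sites strict in both mice, of which there were 44032, had medians of 1.66 and 1.17, a mean of 1.41 ± 0.343. Repeated weak sites thus had 0.291 times the median height of strict sites in replicate 1 and 0.376 times in replicate 2. Sites weak in 1 mouse alone had medians of 0.412 and 0.371, close to the repeated ones.

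The height ranges of the classes overlapped broadly, with 60.6% of strict sites in replicate 1 and 67.6% in replicate 2 inside the range of repeated weak sites. Above the 10th percentile of strict sites stood 16.8% and 18.1% of repeated weak sites. Only 13 repeated weak sites in replicate 1 (0.124%) and 18 in replicate 2 (0.172%) stood above the median of strict sites, and 1.83% and 1.98% of strict sites stood below the median of repeated weak sites. At the edge, the repeated weak site of greatest mean height, 1.65, lay near Zmynd8, while the strict site of lowest mean height, 0.157, lay in an intron on chromosome 2. The repeated weak site of lowest mean height, 0.0619, was intergenic on chromosome 7. The authors' list of false discovery rates gave a median lowest q of 0.00578 in replicate 1 and 0.00596 in replicate 2 for repeated weak sites. Yet 1280 of them (12.3%) in replicate 1 and 1247 (11.9%) in replicate 2 held bases at a q of 0.001 or less, as all 44032 strict sites did.

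**Figure D1:**
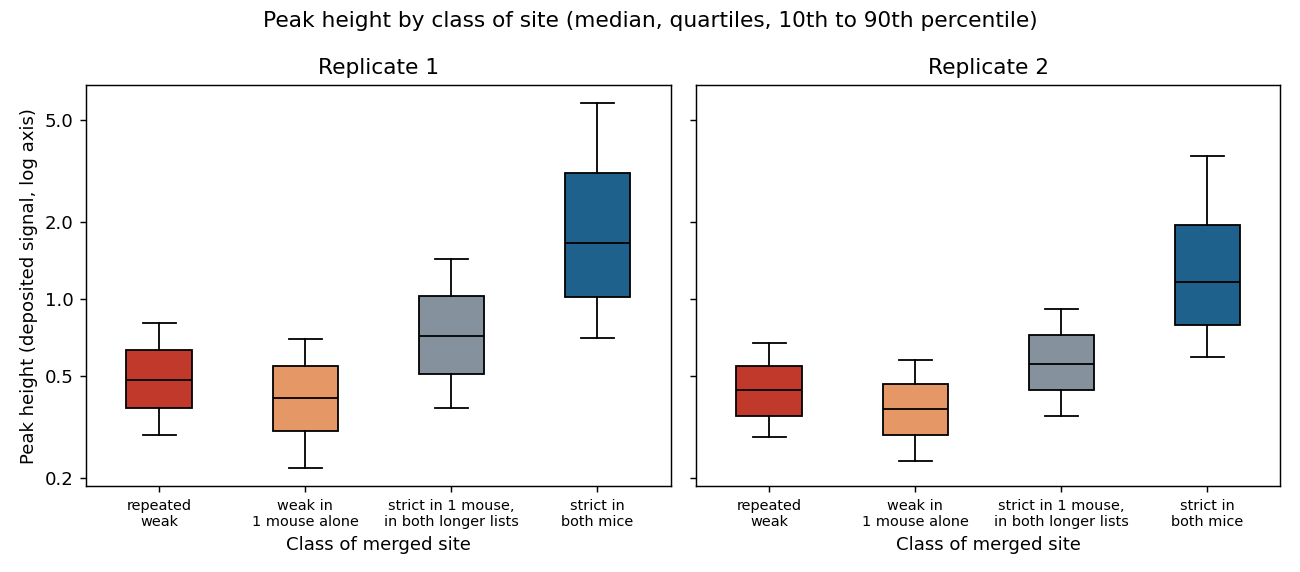
Peak height (deposited signal, log axis) in each replicate for repeated weak sites, sites weak in 1 mouse alone, sites strict in 1 mouse and on both longer lists, and sites strict in both mice; boxes give the quartiles, the line the median and whiskers the 10th to 90th percentile. The repeated weak sites have medians of 0.481 and 0.440, against 1.66 and 1.17 for sites strict in both mice.

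Likeness between the mice in height and place is partly set by the rule, which asks for overlapping peaks off both shorter lists. In 98.8% of them the heights of the mice lay within 2-fold, against 81.3% of strict sites, and the log2 of replicate 2 over replicate 1 had a median of -0.13 with quartiles of -0.38 and 0.11. On the heights as deposited the median ratio of replicate 2 over replicate 1 was 0.915, and scaled to strict sites of both mice it was 1.29, so which mouse was higher depends on the scaling. Across the 10445 sites, which share 2 libraries, Spearman's rho between the heights was 0.747, against 0.825 across strict sites. Peak midpoints of the mice lay a median of 26.5 bp apart in repeated weak sites and 20 bp apart in strict sites. In 98.0% of repeated weak sites each mouse had exactly 1 peak. Sites built anew from peaks that overlapped by at least 50% of both, off both shorter lists, numbered 6213.

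Repeated weak sites were narrow, with a median width of 190 bp, against 260 bp for strict sites and 111 bp for sites weak in 1 mouse alone. Together they covered 2.13 Mb. Their median GC content was 50.3%, against 54.1% for strict sites and 41.8% over the sequenced genome, and they held 18.5 CpG per kb, against 45.4 in strict sites and 8.34 in the genome. Bases masked as repeats made up 9.49% of repeated weak sites, 7.44% of strict sites and 34.3% of the genome. The X chromosome held 247 of them (2.36%), against 2.33% of strict sites and 6.39% of sequenced bases.

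Most repeated weak sites lay inside introns or between genes, not at promoters. A promoter was called where the midpoint fell within 1 kb of an annotated start site of GENCODE M21, and the remaining midpoints were called exonic, intronic or intergenic. Promoters held 1392 repeated weak sites (13.3%, Wilson 95% interval 12.7 to 14.0%), against 39.5% of strict sites, 18.4% of sites weak in 1 mouse alone and 6.13% of sequenced bases. Introns held 4745 of them (45.4%), against 28.8% of strict sites and 39.4% of the genome. Intergenic sites numbered 3798 (36.4%), against 28.1% of strict sites and 51.2% of the genome, and exonic sites 510 (4.88%), against 3.66% and 3.27%. These intervals cover counting error only, and PCR copies of a molecule cannot be told from separate molecules.

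At promoters, weak sites of either kind lay farther from the start than strict sites. The rule partly sets this, since neither kind may overlap a shorter-list peak. Midpoints of repeated weak promoter sites lay a median of 401.5 bp from the nearest start, against 380 bp for sites weak in 1 mouse alone and 73 bp for strict sites. Within 250 bp lay 38.0% of them, against 35.7% and 75.9%. A strict peak stood at the same start for 625 of the 1392 (44.9%), and 767 had none. The median distance to the nearest coding start, over all positions, was 24.1 kb for repeated weak sites, 21.8 kb for sites weak in 1 mouse alone and 6.70 kb for strict sites. Beyond 100 kb lay 2343 repeated weak sites (22.4%), against 23.6% of sites weak in 1 mouse alone and 12.6% of strict sites. Promoter members had median heights of 0.537 and 0.461, above the 0.418 and 0.392 of intergenic members.

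**Figure D2:**
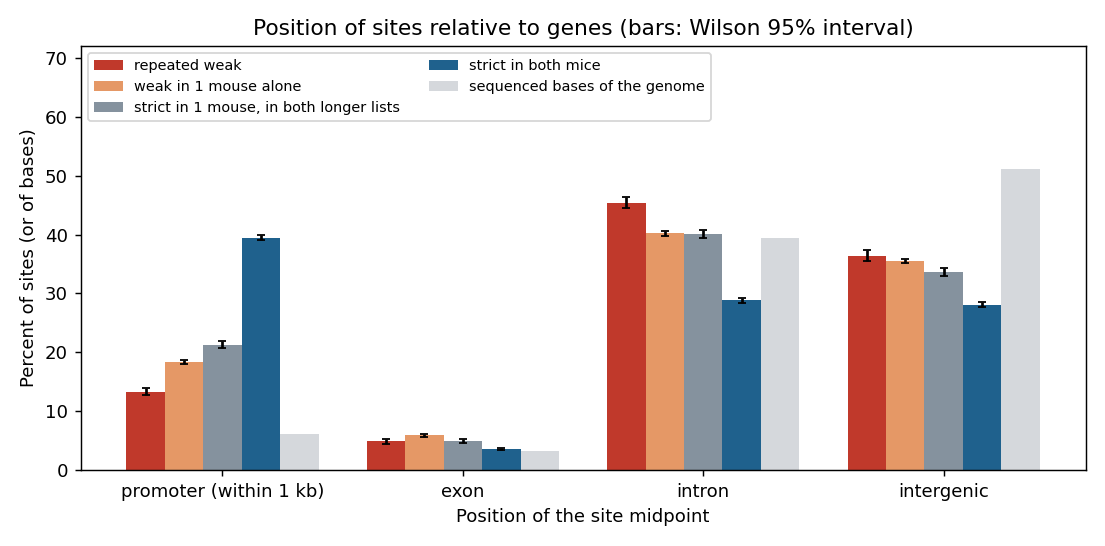
Percent of sites by position of the midpoint relative to genes for 4 classes of site, with Wilson 95% intervals, beside the percent of sequenced bases of the genome. Promoters hold 13.3% of repeated weak sites, against 39.5% of sites strict in both mice, and introns hold 45.4%, against 28.8%.

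Most repeated weak sites stood well away from any strict peak. The nearest shorter-list peak of either mouse lay a median of 7120 bp away, against 5132 bp for sites weak in 1 mouse alone. Within 1 kb of such a peak lay 2021 repeated weak sites (19.3%), against 30.7% of sites weak in 1 mouse alone, and within 500 bp 1302 (12.5%), against 22.6%. At the other end, 873 repeated weak sites (8.36%) were more than 50 kb from any shorter-list peak, as were 11.3% of sites weak in 1 mouse alone. In 10 bins of equal size by mean height, the lowest bin had a median distance of 34.6 kb and the highest 3.14 kb. Over the same bins the promoter share was 8.52% in the lowest and 22.6% in the highest, and median GC content 48.0% and 53.7%.

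Of the 10 repeated weak sites of greatest mean height, the 9 described here lay at promoters, in introns and exons and between genes. Near Zmynd8, a chromatin reader, the site at chr2:165880541-165880780 had heights of 2.08 and 1.22 and was centred at -759 bp from the coding start. The intronic site 12.3 kb past the start of Cdk5r1, the activator of the neuronal kinase Cdk5, had 1.62 and 1.43. In an exon of Ndrg4 a site with the CTCF match shown above had 1.44 and 1.53. Dlgap3, a postsynaptic scaffold, had a promoter site of 1.72 and 1.17 centred at -91 bp from its start. These 4 held footprints in both mice.

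Rbfox3, the splicing regulator known as NeuN, had an intronic site of 1.82 and 0.984. Sites near Nr2f1, a cortical area patterning factor, with 1.17 and 1.62, and Lmo4, a LIM-domain cofactor, with 1.83 and 0.942, lay at promoters. An intergenic site at -2058 bp from the start of the long noncoding RNA Malat1 had 1.86 and 0.936, and one upstream of Rtn4rl2, a Nogo receptor relative, with its CTCF match, 1.41 and 1.36. A shorter-list peak lay between 760 and 3080 bp away from each of the 9.

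Genes with the most repeated weak sites were long. Gm20388, annotated over 4434.88 kb, held 37 in its body and 10 kb on each side, and Fgfr2, annotated here over 2960.90 kb, held 21. Adhesion proteins of the immunoglobulin superfamily followed, with 17 at Opcml and 15 at Lsamp. Kalrn, an exchange factor of dendritic spines, and Rbfox1, a splicing regulator, held 14 each, Nav2 and Ptprd 12 each, and Anks1b and Nrxn3, a presynaptic neurexin, 11 each. Across 21755 coding genes the median was 0, and Spearman's rho of the count with gene length was 0.374, over genes, which are not independent replicates. Per Mb, Kalrn with 22.4 and Nav2 with 16.6 stood above Gm20388 with 8.31.

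Of 145 genes on lists for glia, vessels and interneurons, 58 (40.0%) held a repeated weak site in the gene or 10 kb on either side, where 24.3% of all 21755 coding genes did. Glial genes did so in 33 of 72 cases (45.8%, Wilson interval 34.8 to 57.3%) and interneuron genes in 14 of 30 (46.7%, 30.2 to 63.9%). Vessel genes did so in 12 of 44 (27.3%, 16.3 to 41.8%), a share near that of all coding genes. For comparison, excitatory neuron genes did so in 8 of 19 (42.1%) and genes of liver, muscle and blood in 5 of 23 (21.7%). Gene length moves this count, and median lengths were 18.1 kb for glial, 32.7 kb for vessel, 16.5 kb for interneuron and 17.4 kb for all coding genes. Within the glial lists, precursor genes were the longest, with a median of 66.6 kb, and excitatory neuron genes had 62.5 kb. Medians hide long genes, such as Erbb4 with 1076 kb on the interneuron list. Windows covered 4.09 Mb for the 30 interneuron genes, 5.70 Mb for the 72 glial genes and 1280 Mb for all 21755 coding genes. The part of length in these shares was not tested.

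Density and proportion gave different orders among the lists. Microglial genes had 15.9 repeated weak sites per Mb, astrocyte genes 10.6, precursor genes 8.31 and fibroblast genes 8.16, against 5.35 for all coding genes. These counts include sites nearer the start of another coding gene. On the microglial list such sites lie at Cx3cr1, Aif1, Siglech, Itgam and Trem2, on the astrocyte list at Acsbg1 and Cldn10, and on the fibroblast list at Slc6a13. Interneuron genes, with 4.64 per Mb, endothelial genes, with 4.96, and mural genes, with 2.83, were below all coding genes. Counted by nearest coding gene, 47 repeated weak sites belonged to the 30 interneuron genes, 77 to the 72 glial genes and 23 to the 44 vessel genes. Over all 21755 coding genes there were 10445, and the part of gene spacing in these counts was not tested. As a share of all sites present on both longer lists, repeated weak sites made up 25.0% at microglial genes (Wilson interval 15.5 to 37.7%), 23.5% at precursor genes and 19.4% at interneuron genes, against 13.2% at all coding genes. That share was 17.0% at astrocyte, 13.1% at endothelial, 12.7% at excitatory neuron and 8.33% at oligodendrocyte genes. Genes of liver, muscle and blood, the comparison list from other tissues, were also above all coding genes on both measures. They had 6.55 per Mb and a share of 15.8% (Wilson interval 7.44 to 30.4%). Interneuron windows also held few strict sites, 8.31 per Mb, against 25.7 per Mb for all coding genes.

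**Figure D3:**
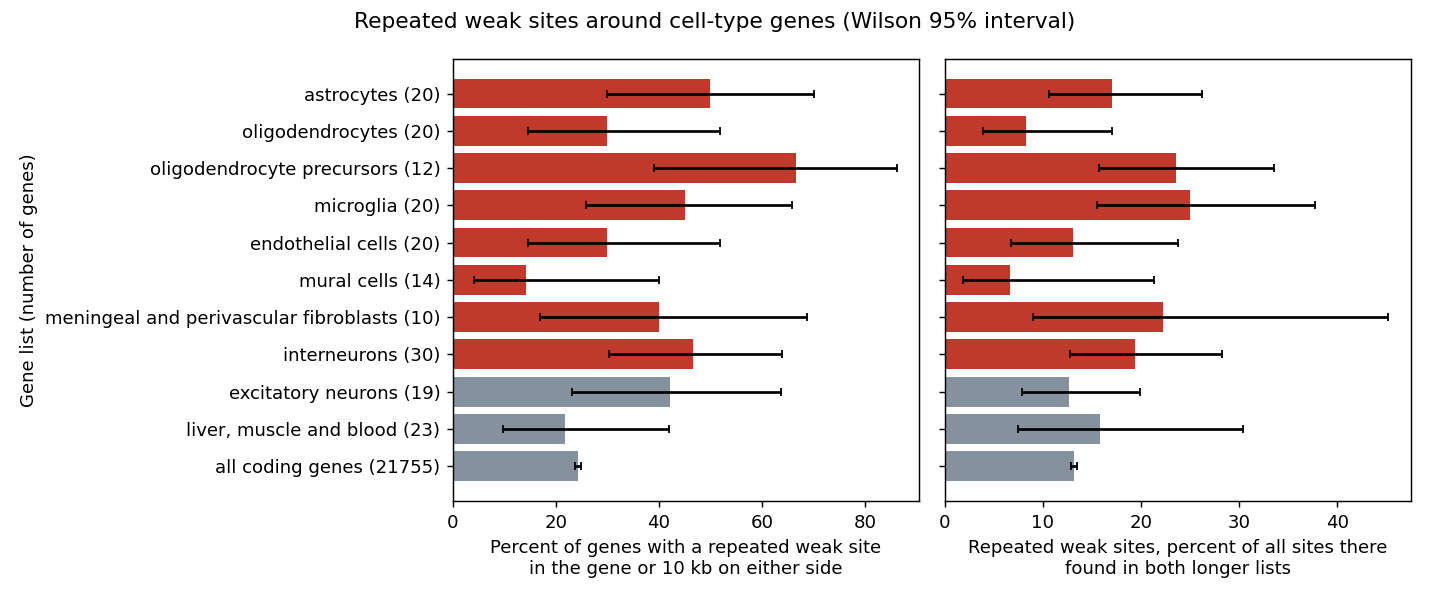
For each gene list (number of genes in brackets), the percent of genes with a repeated weak site in the gene or 10 kb on either side (left) and repeated weak sites as a percent of all sites on both longer lists there (right), with Wilson 95% intervals. Cell-type lists are red and comparison lists grey. Precursor genes reach 66.7% on the left and microglial genes 25.0% on the right, against 24.3% and 13.2% for all coding genes at the bottom. The left panel is not corrected for gene length, of which the median is 66.6 kb for precursor genes and 17.4 kb for all coding genes.

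The promoters of 55 of the 145 genes had no shorter-list peak in either mouse, and 3 of these 55 held a repeated weak site there, where 184 of 7768 such coding genes (2.37%) did. All 3 are glial. The Gjb6 site whose upstream bases are printed above had heights of 0.550 and 0.358, and the exonic one 0.581 and 0.303. The Mag site had 0.506 and 0.433 and the Cx3cr1 site 0.537 and 0.378. The nearest shorter-list peak was 17438 bp away at the Gjb6 upstream site, 10531 bp at Mag and 4780 bp at Cx3cr1. The Gjb6 upstream site held 1 footprint in replicate 1 and 2 in replicate 2, and the other 3 sites held footprints in replicate 1 alone.

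At other astrocyte genes the sites were mostly intronic. Slc4a4, a sodium bicarbonate cotransporter, held 3, with heights of 0.606 and 0.557 for the site with a CTCF match, 0.612 and 0.757 for the second and 0.362 and 0.433 for the third. Acsbg1, a fatty acid activating enzyme, held 2, with 0.425 and 0.509 and with 0.437 and 0.427. None of these 5 differed 2-fold between the mice, and 4 of them held footprints in both.

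Oligodendrocyte genes held 1 site each at 6 of 20 genes. Cldn11, the claudin of myelin, had an intronic site of 0.556 and 0.468, with 3 footprints in replicate 1 and 1 in replicate 2. Precursor genes held 20 sites over 8 of 12 genes. Xylt1, which starts the sugar chains of proteoglycans, held 6, between 0.512 and 0.793 in replicate 1 and between 0.475 and 0.633 in replicate 2. Ptprz1, a receptor phosphatase carrying such chains, held 3 weaker ones, 0.375 and 0.399 at the promoter and 0.237 and 0.385, then 0.312 and 0.385, in introns.

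Microglial genes held 14 sites over 9 of 20 genes, of which Cx3cr1 held 5. The annotation extends Cx3cr1 over 168.264 kb, and 3 of its 5 sites lie nearer the start of Xirp1. Besides the promoter site, these had 0.824 and 0.578, 0.700 and 0.592, 0.525 and 0.468, and 0.400 and 0.351. Aif1, the calcium-binding protein known as Iba1, had a site of 1.11 and 0.695 closer to Prrc2a and one of 0.824 and 0.688 upstream, the second with a CTCF match. Spi1, which encodes the myeloid factor PU.1, held an intronic site of 0.843 and 0.729 with footprints in both mice, and was named after its values were seen.

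Vessel genes held 14 sites over 12 of 44 genes, and none stood at a promoter of its own gene. Erg, an ETS factor of endothelium, held 3 intronic ones, with 0.431 and 0.337, 0.543 and 0.461, and 0.312 and 0.330. Emcn, the sialoglycoprotein endomucin, had an intronic site of 0.275 and 0.358. All 4 held footprints in replicate 1 and in replicate 2 none. At mural genes, Myh11, the smooth muscle myosin, had an upstream site of 0.443 and 0.495, and Rgs5, a pericyte regulator of G-protein signalling, an intronic site of 0.431 and 0.330. Of the fibrillar collagen genes on the fibroblast list, Col1a1 had an intergenic site of 0.562 and 0.495 and Col3a1 one of 0.306 and 0.344. Col1a2 had none.

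Interneuron genes held 19 sites over 14 of 30 genes. Erbb4, the neuregulin receptor, held 3 intronic sites with 0.275 and 0.323, 0.306 and 0.323, and 0.262 and 0.296. Gad1, which makes GABA, held 2 intronic sites, 0.787 and 0.709 at 1109 bp from its start and 0.468 and 0.413 further in. Over the lists, glial sites had median heights of 0.537 and 0.488, vessel sites 0.431 and 0.402 and interneuron sites 0.418 and 0.330. Footprints in both mice were present at 29 of 55 glial, 6 of 14 vessel and 7 of 19 interneuron sites, against 47.1% of all repeated weak sites.

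Most repeated weak sites held a footprint. At least 1 footprint lay wholly inside 7296 of them in replicate 1 (69.9%, Wilson interval 69.0 to 70.7%) and 6669 in replicate 2 (63.8%, 62.9 to 64.8%). Strict sites did so in 96.0% and 96.5% of cases, and sites weak in 1 mouse alone in 50.9% and 47.0%. Per kb of site there were 5.83 and 4.84 footprints in repeated weak sites, against 11.4 and 10.8 in strict sites and 5.85 and 5.58 in the narrower sites weak in 1 mouse alone. The footprints were narrower, with a median of 8 bp in repeated weak sites and 10 bp in strict sites, in both replicates.

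Footprints of the mice seldom fell on the same bases. Both mice had a footprint in 4917 repeated weak sites (47.1%), against 93.6% of strict sites, and neither had one in 1397 (13.4%). Of the footprints inside repeated weak sites, 21.6% in replicate 1 and 26.0% in replicate 2 overlapped one of the other mouse, against 53.0% and 54.6% in strict sites. A footprint at the same place in both mice was present in 2303 repeated weak sites (22.0%), against 81.9% of strict sites. Footprints covered 5.37% and 4.63% of the bases of repeated weak sites, against 14.3% and 14.8% in strict sites, and the part of this lower coverage in the overlap was not tested.

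Peak height moved with the footprint share. In the lowest of the 10 bins of mean height 38.3% of repeated weak sites held a footprint in replicate 1 and 31.5% in replicate 2, and in the highest bin 88.0% and 86.7%. Between heights of 0.4 and 0.5, 71.8% of repeated weak sites in replicate 1 held one, against 89.1% of strict sites and 59.7% of sites weak in 1 mouse alone. In replicate 2 the shares were 68.8%, against 83.1% and 60.0%. Widths differ within that band, with a median of 188 bp for repeated weak sites, against 269 bp for strict sites and 118 bp for sites weak in 1 mouse alone in replicate 1. Per kb of site, the band in replicate 1 held 5.76 footprints in repeated weak sites, against 6.58 and 6.52. In replicate 2 it held 4.99, against 4.86 and 6.64, so the order of the shares did not hold per kb. The part of width in the shares was not tested further. Between 0.8 and 1 the share was 88.3% in repeated weak sites and 94.0% in strict sites in replicate 1.

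**Figure D4:**
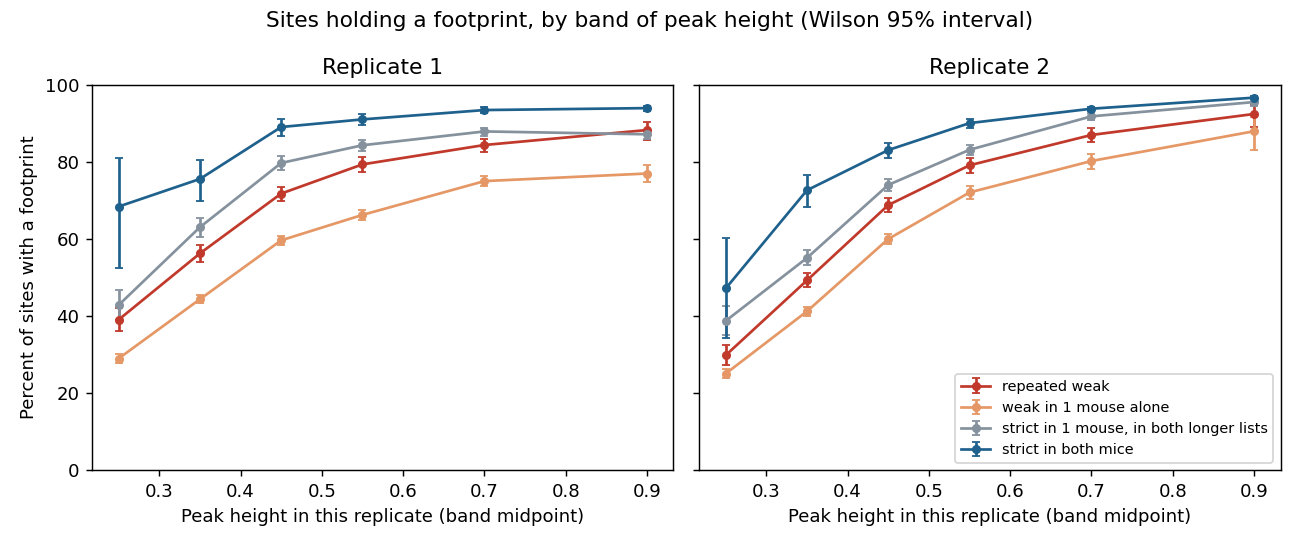
Percent of sites holding at least 1 footprint against peak height in the same replicate, in bands between 0.2 and 1, for 4 classes of site with Wilson 95% intervals. In both replicates the points of repeated weak sites lie above those of sites weak in 1 mouse alone and below those of sites strict in both mice. Between 0.4 and 0.5 in replicate 1 the share is 71.8% in repeated weak sites, against 59.7% and 89.1%. Shares are per site, widths differ between the classes, and per kb of site the order in that band is another one.

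Sequence patterns were counted on both strands in the central 300 bp of each site and in windows of the same length 1 kb to either side. The CTCF pattern was 3.94 times as dense at the centre of repeated weak sites as in their flanks (exact 95% interval 3.50 to 4.44), in 7.89% of central windows and 2.04% of flanks. The same ratio was 5.09 in strict sites and 2.07 in sites weak in 1 mouse alone. Outside promoters it was 4.13 in repeated weak sites, against 6.64 in strict sites. The pattern read backwards gave a ratio of 1.27 in repeated weak sites (0.602 to 2.60), from only 14 central matches.

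The pattern was also compared within 1 band of height. Between 0.4 and 0.5 in replicate 1, the CTCF pattern was present in 7.80% of repeated weak sites outside promoters, against 8.19% of strict sites and 3.35% of sites weak in 1 mouse alone. In replicate 2 it was present in 7.29%, against 7.94% and 7.15%.

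CTCF matches were the ones most often inside footprints among patterns with at least 50 matches. Of 781 matches in repeated weak sites, 41.6% lay in a footprint of replicate 1, 38.3% in one of replicate 2 and 24.7% in both, against 79.5%, 80.4% and 74.2% in strict sites. The 772 repeated weak sites with a match had median heights of 0.525 and 0.495, against 0.475 and 0.433 in the 9673 without. Footprints in both mice were present in 61.5% of the sites with a match and 45.9% of those without. CTCF-matched sites were also narrower, with a median of 166.5 bp, against 193 bp.

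AP-1 was 2.33 times as dense as in the flanks and was present in 12.7% of central windows of repeated weak sites. Outside promoters its ratio was 2.44 (2.25 to 2.64) in repeated weak sites and 2.60 (2.47 to 2.73) in strict sites, so their intervals overlapped. Unlike CTCF, its matches were seldom in footprints, 6.99% in replicate 1, 6.65% in replicate 2 and 1.30% in both. Outside promoters, E-boxes, the sites of basic helix-loop-helix factors, had ratios of 2.14 for CAGCTG and 1.59 for CAGATG, against 1.97 and 1.58 in strict sites. The PU.1 pattern GAGGAAGT had 1.41 (1.20 to 1.66), against 1.08 (0.971 to 1.19), and the POU pattern ATGCAAAT 1.36, against 1.19. In sites weak in 1 mouse alone the ratio was 1.28 (1.19 to 1.38) for PU.1, an overlapping interval, and 1.02 for POU. Read backwards, the PU.1 pattern had 1.11 in repeated weak sites and 1.26 in sites weak in 1 mouse alone.

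Patterns of GC-rich promoters differed most between repeated weak and strict sites when promoters were included. Over all positions the SP/KLF pattern GGGCGG had a ratio of 1.42 in repeated weak sites, against 5.22 in strict sites, the ETS pattern CCGGAAGT 0.892, against 8.13, and the CREB pattern TGACGTCA 1.74, against 6.44. In repeated weak sites the last 2 rest on only 29 ETS matches (interval 0.555 to 1.40) and 47 CREB matches (1.15 to 2.62). Fewer promoters among the repeated weak sites move with this, and outside promoters the SP/KLF ratio was 1.71, against 2.58, the ETS ratio 1.11, against 1.62, and the CREB ratio 1.61, against 2.75. There the ETS intervals overlapped (0.653 to 1.85 and 1.27 to 2.06), as did those of CREB (1.01 to 2.54 and 2.17 to 3.48). The AT-rich homeobox pattern TAATTA, with 0.638, and the GATA pattern AGATAAG, with 0.665, were sparser at the centre of repeated weak sites than in the flanks, as they were in strict sites, with 0.480 and 0.548. Read backwards, with the same bases, the SP/KLF pattern had 1.49 in repeated weak sites, against 5.00 in strict sites, and the homeobox pattern 0.476, against 0.358, so for both the backward letters gave ratios of the same direction. The AP-1 pattern read backwards had 1.09 in repeated weak sites and 0.880 in strict sites, and the CREB pattern 1.57 and 1.46. A match is a description of letters and shows no binding.

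**Figure D5:**
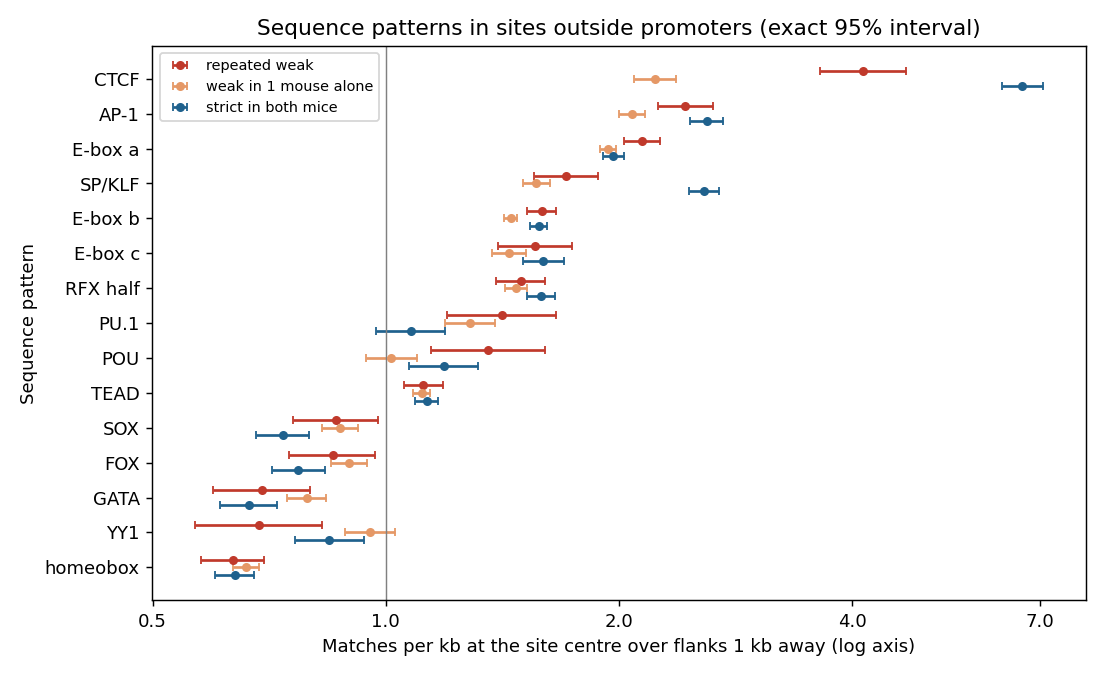
Density of each sequence pattern in the central 300 bp of sites outside promoters over that in flanks 1 kb away (log axis), with exact 95% intervals, for repeated weak sites, sites weak in 1 mouse alone and sites strict in both mice. E-box a stands for CAGCTG, E-box b for CAGATG and E-box c for CACGTG. CTCF has a ratio of 4.13 in repeated weak sites and 6.64 in strict sites, and the AP-1 ratios of 2.44 and 2.60 have overlapping intervals.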

How the data were processed

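DNase-seq was made from the left cerebral cortex of 2 mice, 1 library each. Peaks, false discovery rates and footprints were called per library from filtered alignments on mm10, with the mice not pooled, per the deposited file list (aligner and caller: not given in the sources used here). For each peak the deposited signal was used as its height, the q-value of each listed base came from the authors' list of false discovery rates, and footprints were taken by position, leaving aside the score the authors deposited with them. The highest listed q-value was 0.0500, and listed bases covered 44.5 Mb in replicate 1 and 29.5 Mb in replicate 2.

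Longer-list peaks were merged on chromosomes 1 to 19 and X and sorted into 5 classes by overlap with the shorter lists. Positions came from GENCODE M21 and sequences from the RefSeq genome GRCm38.p6, the build of the files. Shares carry Wilson 95% intervals, and ratios of pattern density exact conditional ones; both cover counting error only. No test was run, since there is 1 group. Merging, classes, patterns and footprint overlap were checked on 6000 simulated sites. The members, gene lists and patterns were chosen with earlier results of these data known. Of 190 list entries, 188 were found in the annotation. Genes named per list were those with a repeated weak site and no shorter-list peak at the promoter and the 2 with the most sites; over the genome, the 10 highest sites and the 10 genes with the most sites were named. A few items that this rule names are not reported here. Scripts ran in Python 3.11.15 with SciPy 1.17.1, NumPy 2.4.6 and pandas 2.3.3. Other overlaps, windows, list lengths and single libraries were tried as alternatives.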

Additional observations from a re-analysis of the deposited data

Results flagged for a closer look

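Outside the chromosomes used, 6 repeated weak sites lay on the Y chromosome, of 117 merged sites there, above the 3 that a count of 0 allows. Their median heights were 0.219 in replicate 1 and 0.371 in replicate 2. The Y chromosome enters no comparison of the results.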

How the results depend on the processing

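No paired analysis was possible because there is 1 group. Sites built anew from peaks with a reciprocal overlap of at least 50% between the mice numbered 6213, against 10445. With them the share of genes with a site was lower, 31.9% for glia and 30% for interneurons. Removing sites within 500 bp of a shorter-list peak left 9143, and equal list lengths 7906. The promoter share was 7.98% with a window of 500 bp, 22.6% with 2500 bp, 9.81% with coding starts alone and 10.3% without sites near a shorter-list peak. With 50 kb on each side, 66.7% of glial and 50% of vessel genes held a site, and within the gene body alone 13.6% of vessel genes. The share over all coding genes was not counted under these settings, so none of these shares can be set against it. The footprint share in replicate 1 was 71.0% over the central 300 bp. The CTCF pattern read backwards gave a ratio of 1.27. The median ratio of heights of replicate 2 over replicate 1 was 0.915, and 1.29 once scaled to strict sites of both mice, which turns its direction; the cause was not tested.

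Leaving out 1 mouse removes the repeat itself, so the sites become all weak sites of the other. Their number was then 45433 to 54577, the promoter share 16.7% to 20.4%, and the share of genes with a site 81.9% to 84.7% for glia, 63.6% to 81.8% for vessels and 80% to 86.7% for interneurons. Genes with a weak site as their promoter peak numbered 29 to 32. All coding genes were not counted for single libraries either, so these shares and numbers have no base rate beside them. The footprint share was 56.6% in replicate 1 and 55.5% in replicate 2, and median heights 0.437 and 0.420. With about 77 and 64 cuts at the median site, the Poisson SD of its height was 11.4% and 12.5%. A difference between the mice carries both errors, so differences somewhat above these values could not be detected at such a site either.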
